A study of Homo sapiens with 18 samples.

Results

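TNS1, TUBB1, CHST15, TMCC1, FGF11 and A4GALT were examined across 3 human cell lines in normoxia and hypoxia. The 6 genes, of 23106 counted, were selected on their own hypoxic response in HepG2 cells, as genes near the top of the HepG2 ranking, and under the name of genes at the top in HepG2 only. Their HepG2 response is therefore given as a description without a test, and a small response in the kidney lines may also be part of the choice. The question asked of them was whether they were expressed and induced by hypoxia in the kidney lines. PolyA+ RNA was sequenced in 18 samples, 3 for each of 6 groups. HKC-8 is a line of kidney proximal tubule cells, which was compared in normoxia and, by its characteristics field, after 16 h in 0.5% oxygen, although the titles of those hypoxic samples give 0.1. RCC4 is a kidney cancer line that has lost the VHL tumour suppressor, and all 6 RCC4 samples here came from RCC4+VHL cells, in which wild-type VHL had been put back by stable transfection. RCC4+VHL cells were compared in normoxia and after, by their labels, 24 h in 1% oxygen, where the text of the study gives 0.5% for 16 h. HepG2 is a hepatocellular cancer line, compared in normoxia and after 16 h in 0.5% oxygen. The labels do not say whether the 3 samples of a group were separate cultures, so p-values measure only the spread between these samples. Cell line and, by the labels, dose and time cannot be told apart in any comparison of RCC4 with the other lines.

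Hypoxia acts on transcription mainly through hypoxia-inducible factor (HIF), a dimer of an oxygen-labile alpha subunit and a stable beta subunit. In oxygen the alpha subunits are hydroxylated, bound by the VHL protein and destroyed. In hypoxia they accumulate and bind hypoxia response elements, which share a core written RCGTG. Many HIF target genes serve glycolysis, oxygen supply and pH control, and which genes respond differs between cell types. The 6 genes have unrelated products. TNS1 encodes tensin 1, an adaptor that joins integrin tails to actin at adhesions. TUBB1 encodes the beta tubulin of platelets and megakaryocytes. CHST15 and A4GALT encode Golgi enzymes, the first adding sulfate to chondroitin sulfate chains and the second making the glycolipid globotriaosylceramide. TMCC1 encodes a membrane protein of the endoplasmic reticulum. FGF11 belongs to the fibroblast growth factor homologous factors, which stay inside the cell and are not secreted as ligands.

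Total counts per sample ran between 75441764 and 97984260 for HKC-8, between 42045335 and 51794355 for RCC4 and between 40915980 and 48355303 for HepG2. Levels are given as CPM, counts scaled to a common library size, after TMM normalization over all 18 samples, with the SD of 3 samples. A count of 3 corresponded to 0.0306 to 0.0733 CPM of the total count. Replicates of HKC-8 differed from each other more than those of RCC4, with a chi-square per degree of freedom between pairs of samples of 32.9 to 91.5 for HKC-8, 4.57 to 7.30 for RCC4, and for HepG2 6.50 to 33.0. All 11 listed hepatocyte markers exceeded 1 CPM in HepG2, against 0 of 11 in HKC-8 and 2 of 11 in RCC4. Of 11 renal tubule markers, 4 exceeded 1 CPM in HKC-8, where PAX8 led and LRP2 was at or near 0 counts, 7 in RCC4 and 5 in HepG2. Their summed level in normoxia was 161 to 202 CPM for HKC-8 and 307 to 322 for HepG2, so these markers did not set HKC-8 above HepG2. Of 20 known hypoxia-induced genes, 20 rose in HKC-8, all 17 that passed the filter on low counts rose in RCC4, and 20 rose in HepG2. CA9, a carbonic anhydrase at the cell surface, rose from 5.34 to 161 CPM in HKC-8 and from 0.539 to 188 in HepG2. PFKFB4, a regulator of glycolysis, rose from 3.59 to 55.3 CPM in RCC4. ANGPTL4, a secreted inhibitor of lipoprotein lipase, rose from 0.657 to 34.6 CPM in RCC4 cells, while HepG2 cells went from 0.459 to 18.9 and HKC-8 cells from 0.0120 to 1.92. In bulk samples such as these, fewer cells of a type and less RNA per cell cannot be told apart.

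All 6 genes had counts in every sample of every line. The lowest in the kidney lines were those of TUBB1 in RCC4, at 24 to 55 per sample. TUBB1 shares 1180 exon bases with ATP5E on the opposite strand, and reads there could not be told apart. Expression of TUBB1 itself in RCC4 was therefore not settled. In HepG2, hypoxia raised the mean level of TNS1 30.6-fold, of FGF11 22.5-fold, of TUBB1 18.7-fold, of CHST15 10.2-fold, of TMCC1 9.80-fold and of A4GALT 5.19-fold. In HKC-8, 2 of the 6 genes were induced by edgeR's quasi-likelihood test, FGF11 and CHST15, where 11.2% of all 13536 genes tested were induced. None was repressed, where 9.12% of all genes were, and the count was also 0 at an unadjusted p under 0.05 and by DESeq2. In RCC4, 4 of the 6 were induced, FGF11, TMCC1, A4GALT and CHST15, and 1 was repressed, TNS1, where 25.9% of 12811 genes were induced and 24.2% repressed. The median log2 fold change of the 6 genes was 0.08 in HKC-8 and 0.41 in RCC4, against a median over all genes tested of 0.00 in both lines. In HepG2, 19.9% of 13623 genes were induced and 19.2% repressed, and nothing is read from the 6 of 6 induced there, because that contrast chose them. The plot of the members by sample shows these values, and the plot of their responses shows the fold changes by line.

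**Figure D1:**
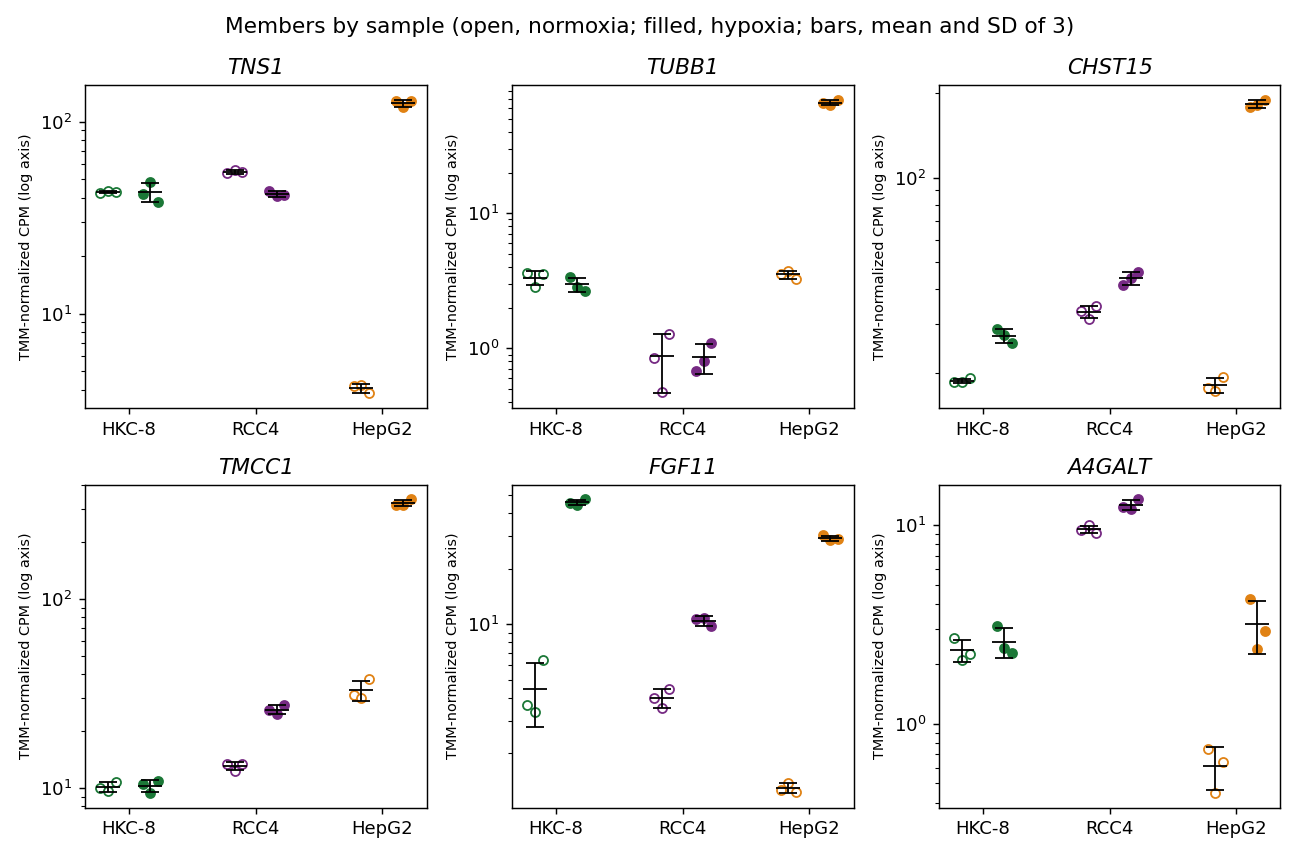
TMM-normalized CPM, on a log axis, of each of the 6 genes in the 3 normoxic samples (open points) and 3 hypoxic samples (filled points) of HKC-8, RCC4 and HepG2 cells, with the mean and SD of 3 samples as black bars. Hypoxic HepG2 cells were highest for TNS1, TUBB1, CHST15 and TMCC1, hypoxic HKC-8 cells for FGF11 and hypoxic RCC4 cells for A4GALT.

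**Figure D2:**
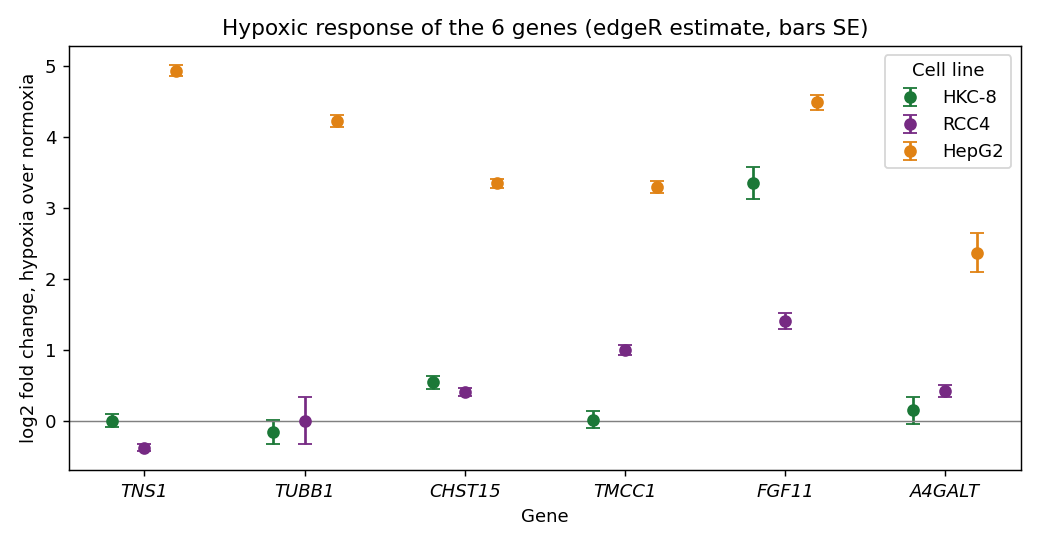
Log2 fold change in hypoxia over normoxia of the 6 genes in HKC-8, RCC4 and HepG2 cells, with the standard error of the edgeR estimate as bars. The HepG2 values, which chose the genes, lie between 2.37 and 4.93, and among the kidney values FGF11 stands highest, at 3.35 in HKC-8 and 1.40 in RCC4.

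By the ranking metric that the study applied, the log2 fold change multiplied by the negative log10 of the p-value from DESeq2, TNS1 was at rank 2 in HepG2, TUBB1 at 6, CHST15 at 7, TMCC1 at 10 and FGF11 at 12. A4GALT was much lower, at rank 274 of 13623, between BCKDK at 273 with a metric of 35.7 and GPR133 at 275 with 35.5, where A4GALT itself had 35.6. By edgeR's log2 fold change alone A4GALT was at rank 134. In HKC-8 the metric placed FGF11 at rank 16 of 13536 and CHST15 at 701, and the other 4 genes between 4912 and 9194. In RCC4 it placed FGF11 at rank 195 of 12811, TMCC1 at 212, CHST15 at 1011, A4GALT at 1531, TUBB1 at 6399 and TNS1 at 12449. Thus FGF11 went against the name under which it was chosen, since it was also near the top in HKC-8. Within the first 274, the depth at which A4GALT lay in HepG2, FGF11 and TMCC1 were also found in RCC4. Of the first 274 genes of the HepG2 ranking, 89 were among the first 274 in HKC-8, 94 among those in RCC4, and 158 in neither. The 158 include genes that did not pass the filter on low counts in a kidney line and so had no rank there.

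The 6 genes were also set beside the 128 other genes that were called in HepG2 with a log2 fold change at or above the 2.37 of A4GALT. Of these, 84 could be tested in HKC-8 and 58 of them, 69.0%, were induced there. In RCC4 71 could be tested, of which 52, or 73.2%, were induced and 4 repressed. For 65 of them both kidney lines gave a value, and 9 of the 65 had a log2 fold change under 0.5 in both lines, as did 3 of the 6 selected genes, TNS1, TUBB1 and A4GALT. Both values were above 1 in 33 of the 65 and in 1 of the 6, FGF11. These counts describe the genes and no test was made of their difference, because low kidney responses may be part of the choice. The plot of the kidney responses shows where the 6 genes lie among the others.

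**Figure D3:**
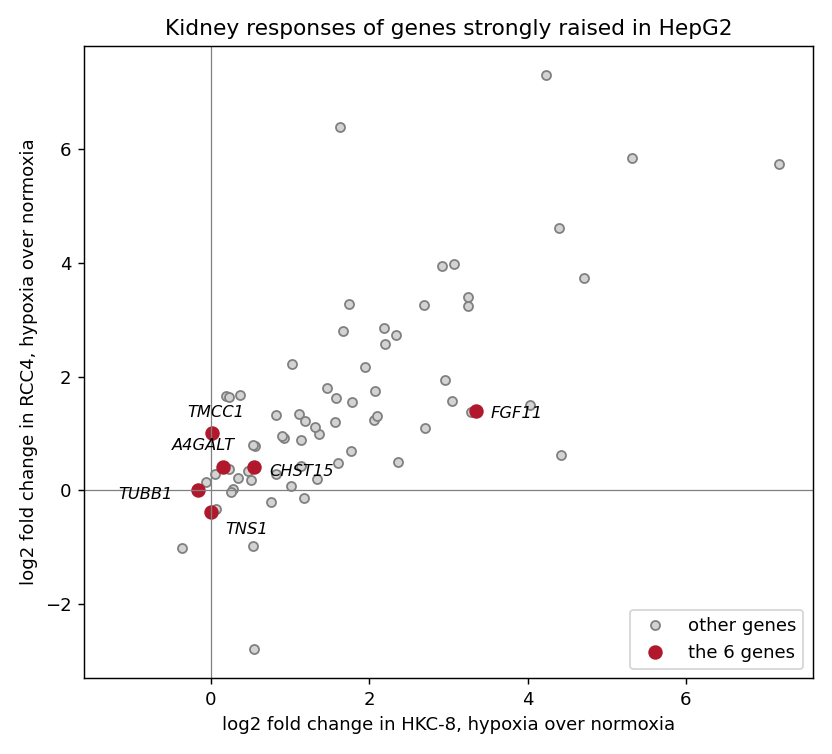
Log2 fold change in hypoxia over normoxia in HKC-8 (horizontal axis) and in RCC4 (vertical axis) of the 71 genes tested in both kidney lines among those called in HepG2 at a log2 fold change of 2.37 or more, with the 6 selected genes in red and the other 65 in grey. TNS1, TUBB1 and A4GALT lie at the lower left, CHST15 and TMCC1 near them, and FGF11 among the genes raised in both lines.

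TNS1 (GRCh37, chr2:218664311-218898705, minus strand, protein-coding) was well expressed in both kidney lines without hypoxia, at levels that normoxic HepG2 cells did not approach. It was at 42.6, 43.3 and 43.1 CPM in the normoxic HKC-8 samples and at 42.2, 48.4 and 38.3 in hypoxia. In RCC4 the normoxic samples had 53.7, 56.1 and 54.3 CPM and the hypoxic samples 43.5, 40.9 and 41.3. In HepG2 TNS1 rose from 4.17, 4.23 and 3.84 CPM to 127, 119 and 129. The hypoxic and normoxic samples overlapped in HKC-8, were lower in hypoxia in 3 of 3 RCC4 samples, and were far apart in HepG2. The log2 fold change was 0.00 (SE 0.10) in HKC-8, with an edgeR adjusted p of 0.991, and -0.38 (SE 0.05) in RCC4, with an adjusted p of 4.68e-07. The RCC4 response was lower than the HKC-8 response by -0.40 (SE 0.10) on the log2 scale, with an edgeR adjusted p of 0.0191. That call was lost, with adjusted p between 0.0688 and 0.0741, when RCC4 normoxia replicate 2, RCC4 hypoxia replicate 2 or RCC4 hypoxia replicate 3 was left out. In normoxia TNS1 was 13.4-fold higher in RCC4 than in HepG2 and 10.5-fold higher in HKC-8 than in HepG2, so that HepG2 went from the lowest of the 6 groups to the highest, at 125 ± 5.25 CPM (SD, n = 3) against 54.7 ± 1.27 in normoxic RCC4.

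RefSeq places the listed start of TNS1 inside the annotated gene, and the 250 bases before it (chr2:218714912-218715161, minus strand) hold 1 core of the hypoxia response element, shown in capitals. It lies at positions -86 to -82 from the start.
TNS1: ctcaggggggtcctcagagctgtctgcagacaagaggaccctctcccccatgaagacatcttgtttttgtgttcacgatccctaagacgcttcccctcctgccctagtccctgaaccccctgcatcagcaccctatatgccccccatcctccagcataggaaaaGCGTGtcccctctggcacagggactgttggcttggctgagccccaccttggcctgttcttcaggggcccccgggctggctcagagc
The counts are summed over the gene, so which start was used was not measured.

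The other tensins were described as well. TNS3, TNS4 and TENC1 (tensin 2) rose in HepG2, 3 of 3 tested, by 0.57, 0.73 and 0.23 on the log2 scale. In the kidney lines 0 of the 2 that could be tested passed the edgeR threshold in either direction, nor at an unadjusted p under 0.05 or by DESeq2. TNS3 had a log2 fold change of -0.08 in HKC-8 and 0.06 in RCC4, and TENC1 of -0.05 and -0.04. TNS4 was counted 0 to 5 times per sample in HKC-8 and 0 to 2 times in RCC4, against 92.1 ± 17.3 CPM in normoxic HepG2 cells (SD, n = 3). Of 17 core focal adhesion genes, the proteins that build the plaques where tensins sit, 2 rose and 1 fell in HKC-8, 11 rose and 2 fell in RCC4, and 8 rose and 1 fell in HepG2. The largest rises among them were of ITGA5, an integrin subunit for fibronectin, by 1.00 in HKC-8, of TLN2, a talin, by 0.49 in RCC4, and of ACTN1, an actin crosslinker, by 0.46 in HepG2. TLN2 rose by 0.45 in HKC-8 and fell by 0.23 in HepG2. ITGB1 rose by 0.44 in RCC4 and TLN1 by 0.39 in HepG2. The falls were of FERMT2, a kindlin, by 0.36 in HKC-8, and of the adaptors ZYX by 0.25 and BCAR1 by 0.23 in RCC4.

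TUBB1 (chr20:57594484-57601709, plus strand, protein-coding) was counted at low levels in HKC-8 and at lower ones in RCC4, and it was not called in either. It had 3.61, 2.86 and 3.53 CPM in normoxic HKC-8 samples and 3.38, 2.86 and 2.68 in hypoxic ones. In RCC4 there were 0.849, 0.477 and 1.29 CPM in normoxia and 0.680, 0.801 and 1.10 in hypoxia, from 24 to 55 counts per sample. In HepG2 TUBB1 went from 3.54, 3.76 and 3.27 CPM to 65.4, 63.0 and 69.3. The normoxic levels of HepG2 and HKC-8 overlapped, as did hypoxic and normoxic samples within each kidney line. The log2 fold change was -0.16 (SE 0.17) in HKC-8 and 0.00 (SE 0.33) in RCC4, with edgeR adjusted p of 0.543 and 0.996. At these counts the RCC4 estimate ranged from -0.30 to 0.37 as single samples were left out, so that a moderate change was not detectable at this depth. In hypoxia TUBB1 stood 22.2-fold higher in HepG2 than in HKC-8 and 76.7-fold higher than in RCC4.

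TUBB1 shares 1180 exon bases with ATP5E, a subunit of the mitochondrial ATP synthase on the opposite strand. The strand setting of the counting is not given in the sources used here, so reads in the shared stretch could not be told apart. ATP5E had a log2 fold change of -0.17 for HKC-8, -0.15 for RCC4 and -0.27 for HepG2, opposite in direction to TUBB1 in HepG2. The flanking genes CTSZ and SLMO2 had 0.15 and -0.21 in HepG2. Markers of platelets and their precursors did not follow TUBB1. Of the 8 others on the list, PF4, PPBP and GP9 had 0 counts in all 18 samples, where a count of 0 allows at most 0.0733 CPM, and 0 of the 4 tested passed in HepG2 by edgeR, also 0 unadjusted and by DESeq2. The summed level of the 8 ran from 1.00 to 2.04 CPM in the normoxic HepG2 samples and from 1.89 to 2.50 after hypoxia. In RCC4 it was 451 to 467 CPM in normoxia and 375 to 398 in hypoxia, nearly all from ITGB3, an integrin subunit that many other cells make. In HKC-8 ITGB3 rose by 0.62.

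Beta tubulins other than TUBB1 also rose in HepG2, where all 7 that could be tested passed the threshold, with a median log2 fold change of 0.39 where the median of all genes was 0.00. TUBB8 was the next after TUBB1, with 2.36 (SE 0.23), from 0.466 to 2.40 CPM, followed by TUBB2B at 1.00 and TUBB6 at 0.99. TUBB3, TUBB2A, TUBB4B and TUBB rose by 0.39, 0.27, 0.21 and 0.18. In HKC-8 1 of 7 rose, TUBB2B by 0.80, and none fell by edgeR, at an unadjusted p under 0.05 or by DESeq2. In RCC4 2 of 7 rose, TUBB3 by 0.42 and TUBB6 by 0.36, and 1 fell, TUBB4A by 0.76. TUBB itself had only 10 to 30 counts per sample in RCC4, against 5269 to 7054 in HKC-8 and 9485 to 11812 in HepG2. The cause of the low RCC4 counts was not tested. Near-identical copies of TUBB exist, and reads that mapped to several places had been removed in all lines, so its values are uncertain. Among alpha tubulins, the partners of beta tubulin in the dimer, only TUBA1A passed in each line, with a rise of 1.00 for HKC-8, 0.36 for RCC4 and 0.33 for HepG2, of 5, 5 and 6 tested by edgeR. DESeq2 called 0 of them in RCC4 and 2 in HepG2.

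CHST15 (chr10:125767184-125853114, minus strand, protein-coding) was induced in all 3 lines, by far the most in HepG2. Its levels were 18.6, 18.5 and 19.1 CPM in normoxic HKC-8 samples and 28.7, 27.3 and 25.5 in hypoxic ones. In RCC4 they were 33.3, 31.3 and 34.6 CPM in normoxia and 41.2, 43.8 and 45.9 in hypoxia. In HepG2 they went from 17.6, 17.2 and 19.4 to 178, 182 and 190 CPM. Hypoxic and normoxic samples did not overlap in any line, and every kidney sample lay far below the hypoxic HepG2 samples. The log2 fold change was 0.54 (SE 0.09) in HKC-8 and 0.41 (SE 0.06) in RCC4, with edgeR adjusted p of 0.00492 and 1.89e-06. The difference between the kidney responses, -0.15 (SE 0.10) for RCC4 against HKC-8, did not pass, with an edgeR adjusted p of 0.345. Normoxic HepG2 cells had as much CHST15 as normoxic HKC-8 cells, with overlapping samples.

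The listed RefSeq start of CHST15 coincides with the annotated start of the gene, its highest coordinate on the minus strand. The 250 bases before this start (chr10:125853115-125853364, minus strand) hold 2 cores, both on the opposite strand to the gene. They are printed in capitals and lie at positions -108 to -104 and -12 to -8 from the start.
CHST15: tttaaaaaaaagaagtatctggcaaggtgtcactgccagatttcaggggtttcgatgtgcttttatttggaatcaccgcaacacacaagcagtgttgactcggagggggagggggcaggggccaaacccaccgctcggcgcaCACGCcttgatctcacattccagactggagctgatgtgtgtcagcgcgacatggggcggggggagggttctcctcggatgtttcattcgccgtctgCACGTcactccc
The nearest counted gene on the side of this start, OAT, is 232757 bases away and had a log2 fold change of 0.06 for HKC-8, 0.08 for RCC4 and 0.25 for HepG2.

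CHST15 acts on chondroitin that other enzymes have already built and sulfated. Of the other enzymes for chondroitin sulfate, 3 rose and 1 fell of 17 tested in HKC-8, 6 rose and 2 fell of 18 in RCC4, and 10 rose and 2 fell of 17 in HepG2. Their median log2 fold change was 0.16, 0.12 and 0.33, in that order. After CHST15, the largest rise in HepG2 was of CHSY1, which extends the chain, by 0.90. CHST14, which sulfates dermatan, rose by 0.69 in HKC-8 and by 0.55 in RCC4. CSGALNACT1, which starts the chain, rose by 1.10 in RCC4 from 0.440 to 0.951 CPM. DSE, an epimerase that turns chondroitin into dermatan, fell by 0.38 in HKC-8, and B3GAT3 and CHPF2 fell by 0.30 and 0.14 in RCC4. In HepG2 the falls were of CSGALNACT2 by 0.40 and of CHST3 by 0.31. In the kidney lines the change of CHST15 was within the range of the other enzymes, whereas in HepG2 it was outside it, the contrast on which it was selected.

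TMCC1 (chr3:129366635-129612554, minus strand, protein-coding) was induced in RCC4 but not in HKC-8. The HKC-8 samples had 9.98, 9.66 and 10.8 CPM in normoxia and 10.5, 9.41 and 10.8 in hypoxia. The RCC4 samples had 13.4, 12.3 and 13.4 in normoxia and 25.9, 24.6 and 27.4 in hypoxia. The HepG2 samples had 30.9, 30.1 and 37.6 in normoxia and 317, 313 and 337 in hypoxia. The groups overlapped in HKC-8 and were separate in RCC4 and HepG2, and normoxic HepG2 samples were above hypoxic RCC4 samples. The log2 fold change was 0.02 (SE 0.12) in HKC-8 and 1.00 (SE 0.07) in RCC4, with edgeR adjusted p of 0.933 and 2.03e-11. The 2 kidney responses differed by 0.96 (SE 0.13) on the log2 scale, with an edgeR adjusted p of 0.000392, and the call was kept under each of 18 alternatives, with the highest adjusted p at 0.00168. TMCC1 was the only one of the 6 genes called with a higher response in RCC4 than in HKC-8, where 7.87% of 14203 genes were. TNS1 and FGF11 were called with a lower response in RCC4, where 7.29% of genes were. By their labels the hypoxic RCC4 cells had more oxygen for a longer time than the hypoxic HKC-8 cells, so line and treatment cannot be told apart here.

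The related TMCC2 and TMCC3 did not rise with TMCC1. In RCC4 both fell, TMCC3 by 0.82 from 11.0 to 6.25 CPM and TMCC2 by 0.64 from 2.00 to 1.27 CPM. In HKC-8 their log2 fold changes were 0.20 and 0.03 and neither passed. In HepG2 TMCC2 had -0.04 and TMCC3 was counted at most 8 times per sample. PLXND1, the nearest counted gene on one side of TMCC1, at 41115 bases, fell by 0.38 in HKC-8 and by 0.18 in RCC4 and rose by 0.33 in HepG2. The RefSeq window of TMCC1, which starts inside the gene, holds 0 cores upstream and 1 core at 25 to 29 bases after the start.

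FGF11 (chr17:7341592-7348256, plus strand, protein-coding) was induced in both kidney lines, and its highest level of all was in hypoxic HKC-8 cells. The normoxic HKC-8 samples had 3.67, 3.36 and 6.43 CPM and the hypoxic ones 45.6, 44.3 and 47.5. In RCC4 the values were 3.97, 3.52 and 4.45 in normoxia and 10.7, 10.9 and 9.75 in hypoxia. In HepG2 they were 1.27, 1.39 and 1.24 in normoxia and 30.3, 28.6 and 28.9 in hypoxia. Hypoxic and normoxic samples were apart in every line, and the third normoxic HKC-8 sample stood above the other two. The log2 fold change was 3.35 (SE 0.23) in HKC-8, rank 38 of 13536 by size, and 1.40 (SE 0.11) in RCC4, rank 131 of 12811, with edgeR adjusted p of 3.32e-05 and 3.04e-10. Without HKC-8 normoxia replicate 3 the HKC-8 value was 3.70. The RCC4 response was lower than that of HKC-8 by -1.96 (SE 0.27), with an edgeR adjusted p of 0.000499. Hypoxic HKC-8 cells had 1.56-fold more FGF11 than hypoxic HepG2 cells, and the larger fold change in HepG2 went with a normoxic level 3.45-fold lower than in HKC-8.

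The listed RefSeq start of FGF11 lies inside the gene, and the bases before it are annotated as untranslated exon of a longer transcript, so only 30 bases around its core are shown (chr17:7344071-7344100, plus strand). The capitals mark the core on both strands, which overlap in a palindrome next to the start.
FGF11: gaccgggccccCACGTGactcagcctgcct
Exon bases of FGF11 are shared with annotated long noncoding RNAs that were not counted. The shared bases are 4169 and 1420 on the same strand and 69 on the opposite strand. Reads in these stretches could not be told apart from those of FGF11. Both neighbouring counted genes of FGF11 lie close by on the same strand. TMEM102, 593 bases away, rose by 0.25 in RCC4 and 0.85 in HepG2, and had 0.42 in HKC-8 with an edgeR adjusted p of 0.0637. CHRNB1, a subunit of the muscle acetylcholine receptor, is 123 bases away and rose by 0.54, 0.42 and 0.63 in HKC-8, RCC4 and HepG2.

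The other homologous factors were below 1 CPM in HKC-8 and HepG2. FGF14 had 0 counts in every sample and FGF13 at most 30. FGF12 rose by 0.42 in RCC4, from 9.30 to 12.3 CPM, had -0.28 in HKC-8 at under 1 CPM, and was at most 2 counts in HepG2. Of the 18 secreted or other FGF ligands listed, 5 could be tested for HKC-8, 3 for RCC4 and 3 for HepG2. FGF18 rose by 0.87 in HKC-8 and 0.51 in RCC4, FGF2 fell by 0.39 in HKC-8, and 0 of 3 passed in HepG2 by edgeR, also 0 unadjusted and by DESeq2.

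A4GALT (chr22:43088127-43117304, minus strand, protein-coding) was most abundant in RCC4, in normoxia and in hypoxia, and was induced there slightly. HKC-8 samples had 2.69, 2.09 and 2.24 CPM in normoxia and 3.10, 2.39 and 2.28 in hypoxia. RCC4 samples had 9.38, 9.97 and 9.13 in normoxia and 12.3, 12.1 and 13.5 in hypoxia. HepG2 samples had 0.748, 0.448 and 0.645 in normoxia, from 20 to 33 counts, and 4.24, 2.39 and 2.92 in hypoxia, from 110 to 178 counts. The hypoxic HepG2 samples overlapped with the hypoxic HKC-8 samples and lay below every RCC4 sample. The log2 fold change was 0.15 (SE 0.19) in HKC-8 and 0.41 (SE 0.08) in RCC4, with edgeR adjusted p of 0.625 and 0.000246. In 1 fit of all 18 samples the RCC4 value was not called, with an adjusted p of 0.0940. A4GALT shares 74 exon bases with CYB5R3, a reductase of cytochrome b5 on the same strand, which rose by 0.30 for HKC-8, 0.16 for RCC4 and 1.08 for HepG2. ARFGAP3 on its other side had 0.20, 0.19 and 0.22.

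A4GALT makes globotriaosylceramide from lactosylceramide. The other listed genes serve glycosphingolipids or, as SMPD1 does, related sphingolipids. Of these, 1 rose and 1 fell of 17 tested in HKC-8, and 6 rose and 5 fell of 15 in RCC4. In HepG2 0 rose and 3 fell of 13 by edgeR. At an unadjusted p under 0.05 the HepG2 counts were 2 and 5, and by DESeq2 0 and 3. In HepG2, where A4GALT was selected for its rise, the falls were of GLA, the lysosomal enzyme that removes the sugar A4GALT adds, by 0.33, of B4GALT5, which makes lactosylceramide, by 0.32, and of SMPD1, acid sphingomyelinase, by 0.28. B4GALT5 also fell in HKC-8, by 0.56, where B3GALT5 rose by 1.59 from 0.247 to 0.743 CPM. In RCC4 the largest rise was of UGCG, which makes glucosylceramide, the first step of the pathway, by 0.52, and the largest falls of SMPD1 by 0.64 and ST3GAL5 by 0.48. The plot of the families shows the members beside their relatives.

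**Figure D4:**
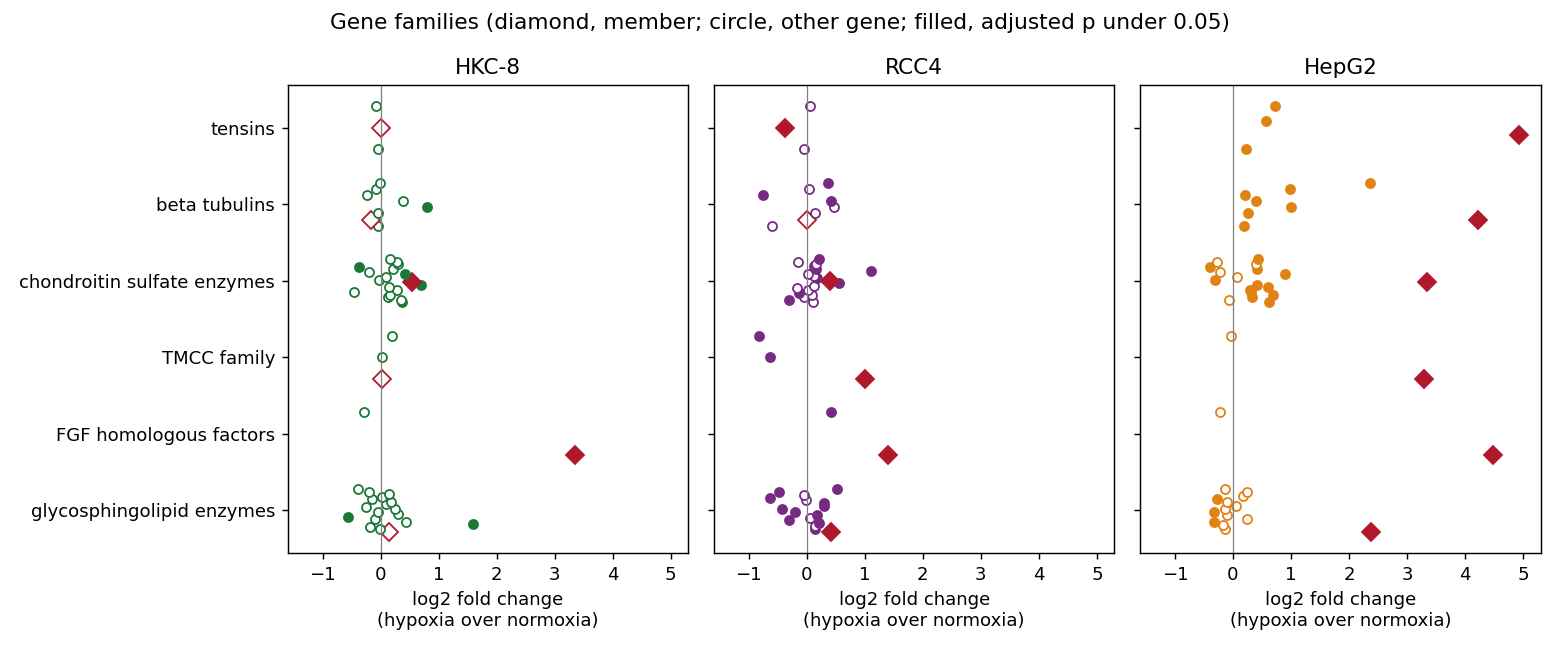
Log2 fold change in hypoxia over normoxia of the tested genes of 6 families in HKC-8, RCC4 and HepG2 cells, with the selected genes as red diamonds, other genes as circles, and filled symbols for an edgeR adjusted p under 0.05. In HepG2 each diamond lies to the right of its whole family, as the selection would give, while in the kidney lines FGF11 in HKC-8, at 3.35, has the largest rise among the genes shown.

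Before hypoxia, the kidney lines themselves differed in 5 of the 6 genes. In normoxia A4GALT was 2.03 higher on the log2 scale in RCC4 than in HKC-8 (SE 0.14, edgeR adjusted p 4.85e-07), CHST15 0.83 higher (SE 0.07, 3.03e-06), TMCC1 0.37 higher (SE 0.10, 0.00659) and TNS1 0.35 higher (SE 0.06, 0.000247). TUBB1 was lower in RCC4, by -1.94 (SE 0.31, adjusted p 0.000206), and FGF11 had -0.17 (SE 0.25, 0.533). Most genes differ between these lines, with 41.3% of 13755 genes higher in RCC4 and 43.6% lower, and a difference in one direction or the other is thus common among all genes. This comparison shares its normoxic samples with the responses above.

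The order of the levels separates the genes further. For TNS1 the order was hypoxic HepG2, normoxic RCC4, normoxic HKC-8, hypoxic HKC-8, hypoxic RCC4 and normoxic HepG2, and the 3 groups from normoxic HKC-8 to hypoxic RCC4 overlapped with their neighbours. For TUBB1 only the steps below hypoxic HepG2 and below hypoxic HKC-8 were free of overlap. For CHST15 hypoxic RCC4, normoxic RCC4 and hypoxic HKC-8 followed below hypoxic HepG2 without overlap, above the overlapping pair of normoxic HKC-8 and HepG2. For TMCC1 the HKC-8 groups overlapped at the bottom and the other 4 were apart. For FGF11 normoxic HKC-8 and RCC4 overlapped, with HepG2 alone below them. For A4GALT hypoxic HepG2 and both HKC-8 groups overlapped, below both RCC4 groups. Scaling by the total count alone gave the same order for 5 genes and exchanged the overlapping HKC-8 groups of TNS1.

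Genes whose log2 CPM followed each of the 6 most closely over the 18 samples were found by Pearson's r, as a description, since the samples form 6 groups of 3 and share lines and libraries. For TNS1 they were CRKL, SLC6A8 and FAM13A, with r of 0.90, 0.87 and 0.87, and for TUBB1 SLC11A2, LIN54 and DOCK6, with 0.97, 0.96 and 0.95. For CHST15 they were WDR45B, SNX32 and SLAMF9, with 0.94, 0.92 and 0.92, and for TMCC1 OBSL1, SLC51A and SMIM3, with 0.98, 0.97 and 0.97. For FGF11 they were PNRC1, HILPDA and KLF10, with 0.97, 0.96 and 0.95, and for A4GALT FZD7, ATP10A and AGPAT2, with 0.99, 0.98 and 0.98. HILPDA, a lipid droplet protein, had a log2 fold change of 1.08 for HKC-8, 1.04 for RCC4 and 1.62 for HepG2. FAM13A had 0.05, 0.28 and 3.49, and SMIM3 0.25, -0.04 and 2.96. The gene with the highest r for each member had a smaller log2 fold change in HepG2 than that member. CRKL had 0.71 there, SLC11A2 0.52, WDR45B 0.61, OBSL1 1.74, PNRC1 1.19 and FZD7 1.43, where the 6 members had 2.37 to 4.93. Among the 6 genes themselves r ran from -0.40 between TUBB1 and A4GALT to 0.87 between CHST15 and TMCC1.

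The core of the hypoxia response element was searched as ACGTG and GCGTG on both strands in the RefSeq promoter windows (GRCh38.p14 table, each of the 6 found once, letter for letter, in GRCh37). In the 250 bases before the start, 3 of the 6 genes held at least 1 core, TNS1, CHST15 and FGF11, and TUBB1, TMCC1 and A4GALT held none. Among all 35116 promoter windows, 43.2% held at least 1 in the same stretch, and 48.4% in the full 300 bases, so the share among the 6 is near that of all genes. A match is a description of letters, and distant elements were not searched.

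Other cell types were looked for among the markers. The summed level of 6 fibroblast markers rose in HepG2 from 26.7 to 29.8 CPM in normoxia to 62.9 to 71.4 in hypoxia, led by PDGFRB, with COL1A2 and DCN at 0 counts. That of 5 endothelial markers was 1.58 to 2.24 CPM in normoxic and 1.76 to 2.90 in hypoxic HepG2 samples. The summed level of the 11 hepatocyte markers was 36894 to 38574 CPM in normoxia and 43738 to 47361 in hypoxia. Their part in the rise of the 6 genes was not tested.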

How the data were processed

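PolyA+ RNA libraries of HKC-8, RCC4+VHL and HepG2 cells were analysed as deposited by the authors, as raw read counts per gene, with 1 table for each of 18 samples. To make these counts the authors trimmed adapters with Trim Galore 0.3.3, aligned reads to GRCh37 with TopHat 2.0.8b and Bowtie 1.0.0, removed fragments without a unique position with SAMtools 0.1.19, and counted reads on UCSC genes with HTSeq 0.5.4p3 in its strict intersection mode (versions per the submitters' processing notes). Genes with near-identical copies lose reads in this way, and reads spanning an exon and an unannotated stretch are not counted. The strand setting is not given in the sources used here.

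Samples were grouped by cell line and oxygen from the labels. Each comparison was fitted apart with edgeR 4.0.16 in R 4.3.3 (filterByExpr, TMM, glmQLFit and glmQLFTest), p-values were adjusted over all genes tested by the Benjamini-Hochberg method, and genes under 0.05 were called. Standard errors were taken from the log2 fold change and the root of the F statistic. The code was tested on simulated counts. The ranking metric used DESeq2 1.42.0. Log2 CPM for the most similar genes used a prior count of 2. Positions and sequences were read with Python 3.11.15 from GRCh37 and RefSeq, and 93.2% of gene symbols matched the annotation.

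The members, gene lists and tests were chosen with earlier results of these data known. Genes named are the 6 members, all genes of lists of up to 5, the 2 largest rises and 2 largest falls among called genes of longer lists, 3 most similar genes per member, the nearest counted genes and those beside the lowest-ranked member. Beta and alpha tubulins, platelet markers and homologous factors outside this rule were given values after these were seen. So were the fold changes of FAM13A, SMIM3, HILPDA and the gene with the highest r for each member. Alternatives were DESeq2, other size factors, other filters, a replicate block, 1 fit of all 18 samples and leaving out each sample. The chromatin data of the study were not used here. Values of 1 listed marker gene are not reported here. Counting intervals and limits cover counting error only.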

Additional observations from a re-analysis of the deposited data

Results flagged for a closer look

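The responses of HKC-8 and RCC4 differed for 3 of the 6 genes by a test of the difference itself, the interaction of line and oxygen in edgeR, with 1 higher and 2 lower in RCC4, where 7.87% and 7.29% of all genes were called. TMCC1 rose in RCC4 with no call in HKC-8, a difference of 0.96 on the log2 scale (SE 0.13, adjusted p 0.000392), and its hypoxic samples were higher in 3 of 3 in RCC4. FGF11 responded less in RCC4 than in HKC-8, by -1.96 (SE 0.27, edgeR adjusted p 0.000499), although it rose in both. TNS1 fell in RCC4 and had no call in HKC-8, a difference of -0.40 (SE 0.10, edgeR adjusted p 0.0191), and lost the call without RCC4 normoxia replicate 2, RCC4 hypoxia replicate 2 or RCC4 hypoxia replicate 3, with adjusted p up to 0.0741. TNS1 also moved in opposite directions in RCC4, where all 3 hypoxic samples were below all normoxic ones, and in HepG2, where all were above. The log2 fold changes differ by -5.31 for RCC4 against HepG2, and this difference was not tested because the HepG2 response chose the gene. The labelled oxygen level and time of the RCC4 samples differ from those of both other lines and cannot be told apart from the line.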

How the results depend on the processing

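For HKC-8, calls over all genes varied widely between settings, and the cause was not tested. A total of 1522 were induced and 1235 repressed, against 2503 and 2510 in 1 fit of all 18 samples, and 687 to 1794 and 326 to 1489 as each sample was left out, lowest without HKC-8 normoxia replicate 1. Induced and repressed were 933 and 522 without HKC-8 normoxia replicate 2, 750 and 342 without HKC-8 hypoxia replicate 1, and 675 were repressed without HKC-8 hypoxia replicate 3. In RCC4 the fit of all 18 samples called 1867 induced and 1419 repressed, against 3318 and 3105. The genes with a lower response in RCC4 numbered 667 to 1399 as each sample was left out, against 1036, lowest at 667 to 683 without RCC4 hypoxia replicate 2, RCC4 hypoxia replicate 3 or RCC4 normoxia replicate 2, and the members among them 1 to 2, the loss being TNS1. Replicate numbers are shared by label only: deviations of same-numbered samples had r of 0.075 to 0.373 for HKC-8, -0.019 to 0.013 for RCC4 and 0.039 to 0.096 for HepG2. With the replicate block 2836 genes were induced and 2919 repressed in HKC-8, and 2179 had a higher and 1892 a lower response in RCC4. Each of the 6 genes kept its side of the threshold with the block. The values of uncalled genes near 0 changed sign: TNS1 in HKC-8 had -0.0028 with no filter, -0.0012 in the fit of all 18 samples, -0.0041 with the replicate block and -0.091 to 0.075 as samples were left out, TMCC1 in HKC-8 had -0.029 to 0.076, and TUBB1 in RCC4 had -0.0083 by DESeq2, -0.00042 with median-of-ratios size factors and -0.30 to 0.37. FGF11 between the normoxic kidney lines had -0.35 to 0.19, and the TUBB1 difference of responses -0.14 to 0.53. All 72 alternative values of the 6 genes in HepG2 moved by less than a combined SD. That SD was the root of the summed squares of the normoxic and hypoxic SDs of log2 CPM. Of the tested values of the 6 genes, 299 kept direction and call, 15 changed sign and 4 lost the call. TUBB1 in RCC4 and A4GALT in normoxic HepG2 are limited by depth.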
